A study of Homo sapiens with 2 samples.

Results

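L1PA5, L1PA6, L1PA7 and L1PA8 are subfamilies of L1, the LINE retrotransposon that copies itself through an RNA intermediate and has left the bulk of its copies in primate genomes as inert, truncated fragments. In serum-grown MDA-MB-231 cells, a human line from a triple-negative breast cancer, 1979 of the 21440 peaks called for the kinase mTOR by chromatin immunoprecipitation and sequencing (ChIP-seq) had their centre in such an element. They were found by the repeat name that the deposited annotation gives the peak centre: family L1 and the name L1PA5, L1PA6, L1PA7, L1PA8 or L1PA8A, with no measured value used. There was 1 mTOR ChIP library, enriched with an antibody against mTOR, and 1 input library, chromatin of the same line without enrichment, so nothing could be compared between replicates. The data are the peak list of the ChIP library on the hg38 build. The list has no read counts, so the depth is unknown. Intervals below are exact 95% intervals (Clopper-Pearson for shares, order statistics for medians); they cover counting error only, and peaks are not replicates, so no test was made.

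The L1PA lineage is a succession of L1 subfamilies that replaced each other during primate evolution, and a larger number marks an older subfamily. L1HS is the one still mobile in humans, while L1PA5 to L1PA8 are fixed remnants that no longer move. A full-length L1 carries its own promoter at its 5′ end and codes for an RNA-binding protein and for an endonuclease with reverse transcriptase. Host cells keep such elements silent with DNA methylation, with KRAB zinc finger proteins and their partner TRIM28, and with the HUSH complex. Copies of a subfamily resemble each other closely, and how reads that align to several copies were placed is not given in the sources used here. The part that this plays in the counts and scores was not tested.

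These subfamilies made up 27.0% (26.0 to 28.0%) of the 7337 peaks over L1 elements and 9.23% (8.85 to 9.63%) of all peaks. L1PA5 held 705 of the 1979 peaks, or 35.6% (33.5 to 37.8%). L1PA7 followed with 628 peaks, 31.7% (29.7 to 33.8%), and L1PA6 with 459, 23.2% (21.3 to 25.1%). L1PA8 had 153 and its variant L1PA8A 34. L1PA5, L1PA7 and L1PA6 ranked 1, 2 and 3 by count among the 123 L1 names in the list. On either side of them in the lineage, L1PA4 had 449 peaks and L1PA3 had 395, while L1PA10 had 89 and L1PA11 had 64. The count was thus high from L1PA3 to L1PA7 and low from L1PA8 on, with a smaller rise at L1PA16, which had 203. How many copies of each subfamily the genome holds was not used here, so these counts are not enrichments.

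**Figure D1:**
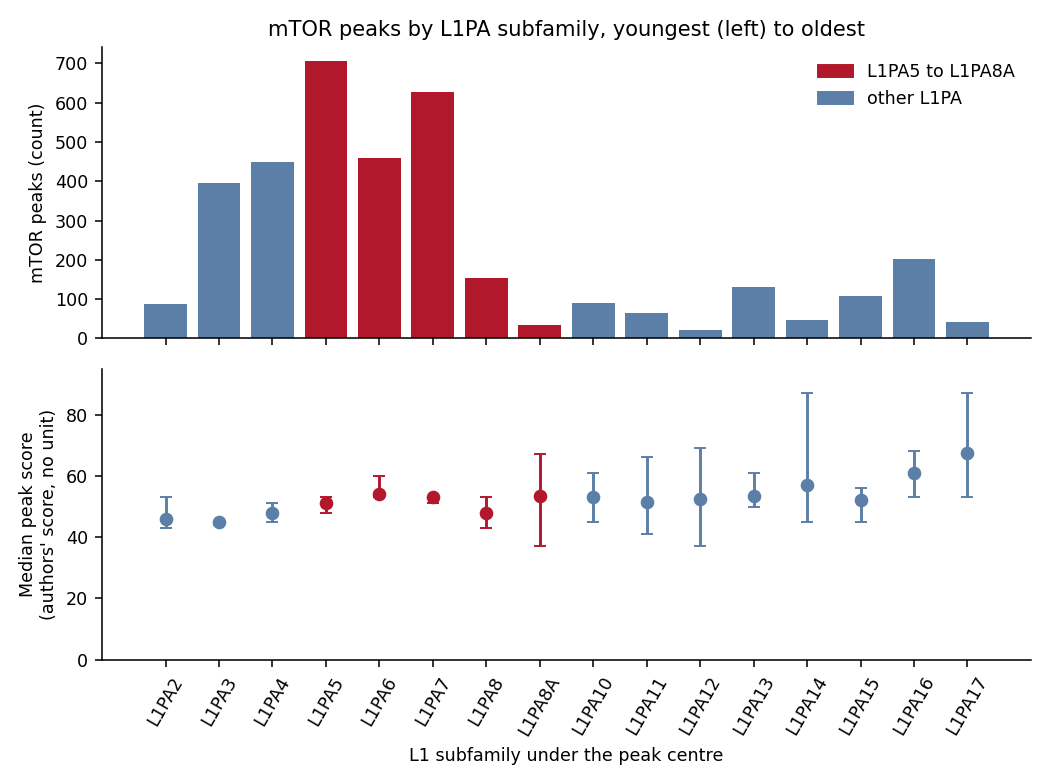
Number of mTOR peaks (top, bars) and median peak score (bottom, points with exact 95% intervals; the authors' score, no unit) by L1PA subfamily, youngest at the left; red marks L1PA5 to L1PA8A and blue the other L1PA names, and L1HS with 6 peaks is not drawn. Counts are greatest at L1PA5 with 705 and L1PA7 with 628, and the median score lies between 45 and 54 from L1PA2 to L1PA13.

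Peaks over L1PA5 to L1PA8 were of moderate score and seldom strong. The score is the authors' own whole number per peak, whose scale no source used here states, and it serves only to rank peaks within the list. The median was 53 (52 to 53), with quartiles of 37 and 73 and a range of 13 to 309. Over the other 5358 L1 peaks it was 61 (61 to 61), with quartiles of 41 and 101 and a maximum of 1425. The median of all peaks was 61 as well. A score of at least 61 was reached by 789 of the 1979 peaks, 39.9% (37.7 to 42.1%), against 52.0% (50.7 to 53.4%) of other L1 peaks and 50.0% of all peaks. The intervals of both sets do not overlap.

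In proportion, though not in percentage points, the gap was wider in the upper tail. Only 25 of the 1979 peaks, 1.26% (0.819 to 1.86%), scored 200 or more, the level that the highest-scoring 10.0% of all peaks reach. Among other L1 peaks 490 did so, 9.15% (8.39 to 9.95%). Of these 490 peaks 453 lay over L1M and HAL1, the L1 names outside L1HS and L1P, which are mostly older. The 3441 peaks over L1M and HAL1 had a median of 69 (69 to 73), and 13.2% (12.1 to 14.3%) of them scored 200 or more. The 980 peaks over older primate L1P names had a median of 54 (53 to 59) and 3.47% (2.41 to 4.81%) at that level. The 937 peaks over L1HS to L1PA4 lay lower than L1PA5 to L1PA8, with a median of 45 (45 to 48) and 3 peaks, 0.320% (0.0661 to 0.933%), at 200 or more.

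**Figure D2:**
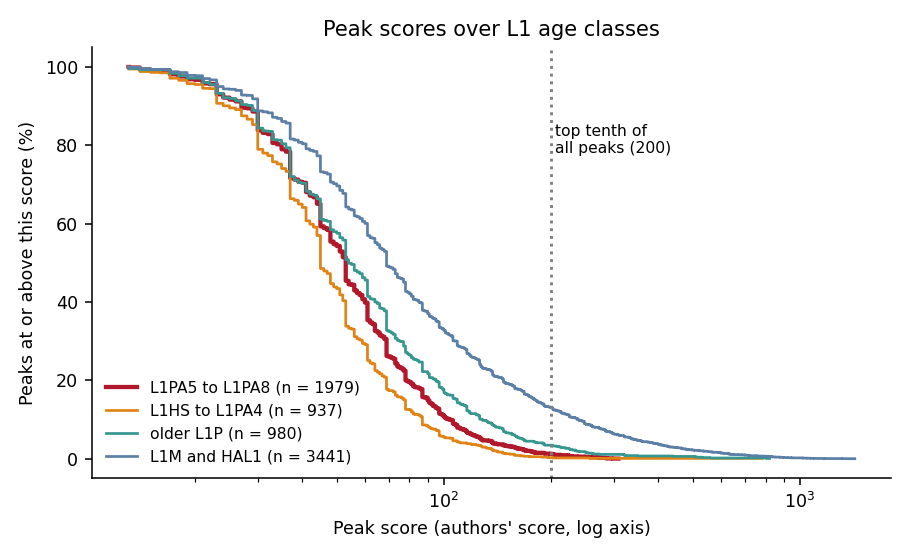
Share of peaks (vertical axis, %) at or above each peak score (horizontal axis, the authors' score, log axis) for L1PA5 to L1PA8 (red, n = 1979), L1HS to L1PA4 (orange), older L1P (green) and L1M with HAL1 (blue); the dotted line marks a score of 200. At a score of 200 red lies at 1.26%, between L1HS to L1PA4 at 0.320% and L1M with HAL1 at 13.2%; it ends at 309, while the orange curve reaches 784 by a single peak of L1HS.

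Among themselves the subfamilies had similar scores. Medians were 51 (48 to 53) for L1PA5, 54 (53 to 60) for L1PA6, 53 (51 to 53) for L1PA7, 48 (43 to 53) for L1PA8 and 53.5 (37 to 67) for L1PA8A. Each interval overlapped every other, or met it at 53. Of the 25 peaks at 200 or more, L1PA7 had 11, L1PA5 had 9, L1PA6 had 4 and L1PA8 had 1. L1PA8A had 0 of 34, with an exact upper bound of 10.3% (8.82% if 3 counts are taken as the limit). L1PA3, with 45 (44 to 45), lay below L1PA5, L1PA6 and L1PA7 with intervals apart from theirs.

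The median width was 339 bp (334 to 344), with quartiles of 287 and 427.5 bp, against 379.5 bp (375 to 386) for other L1 peaks and 400 bp (397 to 403) for all peaks. L1HS to L1PA4 peaks were narrower, at 325 bp (318 to 331), older L1P overlapped at 347 bp (338 to 355), and L1M with HAL1 was wider, at 418 bp (409 to 427). Together the L1PA5 to L1PA8 peaks covered 747 kb, while other L1 peaks covered 2485 kb. Subfamily medians ran from 302 bp (286 to 360) for L1PA8A to 345 bp (320 to 372) for L1PA8, with overlapping intervals. Width and score rise together over L1PA5 to L1PA8 (Spearman's rho = 0.38 across 1979 peaks of 1 library). The same rank correlation was 0.24 over L1HS to L1PA4, 0.49 over older L1P and 0.65 over L1M with HAL1, and 0.59 over all other L1 (n = 5358). Widths were therefore also set side by side within bands of score, chosen after the values were seen.

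Below a score of 40 the widths did not differ beyond their intervals, with 307 bp (300 to 317) over L1PA5 to L1PA8 and 309 bp (304 to 314) over other L1. From 60 to below 100 the medians were 354.5 bp (346 to 366) over L1PA5 to L1PA8 and 378 bp (372 to 387) over other L1. From 100 to below 200 they were 450 bp (425 to 470) and 510 bp (498 to 528) in the same order of sets. Peaks over L1PA5 to L1PA8 were thus narrower than other L1 peaks within both of these bands. Scores inside a band may still differ between the sets, and the bands were not split by L1 age. Whether L1HS to L1PA4 or older L1P peaks share this was therefore not tested. In the bands of 40 to below 60 and of 200 or more the intervals overlapped. The widest lay in intron 4 of BRMS1L, which encodes a subunit of a histone deacetylase complex, with 1174 bp, a score of 192 and the name L1PA7 (chromosome 14, 35841733 to 35842906). An L1PA5 peak of 1138 bp and score 64 followed in intron 35 of ULK4, a gene for a predicted pseudokinase (chromosome 3, 41377876 to 41379013). Its nearest start by the deposited annotation is that of CTNNB1, the gene for beta-catenin, 178939 bp away. The next was an L1PA5 peak of 1065 bp and score 69 in intron 2 of TMEM123, which encodes a cell surface receptor (chromosome 11, 102444188 to 102445252).

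Introns held 966 of the 1979 peaks, 48.8% (46.6 to 51.0%), and intergenic sequence held 1013, 51.2% (49.0 to 53.4%). For other L1 peaks the shares were 48.3% (47.0 to 49.7%) and 51.7% (50.3 to 53.0%) in the same order of classes, which does not differ beyond the intervals. No other class was possible, since none of the 3987 peaks deposited as promoter, exon or other classes carries a repeat name in this table. Within the lineage L1PA5 was intronic in 53.5% (49.7 to 57.2%) and L1PA7 in 44.7% (40.8 to 48.7%), with intervals apart. L1PA6, L1PA8 and L1PA8A lay between, at 47.3%, 49.0% and 47.1%, and overlapped both.

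Of the intronic peaks 222, or 23.0% (20.4 to 25.8%), lay in a first intron, against 28.9% (27.2 to 30.7%) of other intronic L1 peaks. L1HS to L1PA4 had a share like theirs, 21.6% (18.0 to 25.7%). The transcript named by the annotation could be matched to a gene spanning the peak for 960 of the 966 peaks, and these gave 794 host genes. Host genes, each counted once, had a median length of 156 kb (140 to 169). It was 127 kb (121 to 134) for hosts of other L1 peaks and 82.3 kb (78.9 to 85.5) for those of all intronic peaks. Each part of other L1 had a higher median than the whole: 169 kb for L1HS to L1PA4, 164 kb for older L1P and 129 kb for L1M with HAL1. A host with many peaks still counts once, and the part of set size in these gaps and in the share over 100 kb was not tested. Of the 794 hosts 68.6% (65.3 to 71.9%) exceeded 100 kb, against 59.3% (57.0 to 61.5%) for other L1. L1HS to L1PA4 and older L1P hosts were at 69.6% (64.7 to 74.1%) and 67.8% (62.9 to 72.5%), so this does not set L1PA5 to L1PA8 apart from the other primate L1. For 595 of the 960 peaks, 62.0% (58.8 to 65.1%), the host was also the gene with the nearest start.

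Distances to the nearest annotated start site were large. The median was 46810 bp (43542 to 49177), against 41219 bp (39499 to 43068) for other L1 peaks and 21627.5 bp (21012 to 22173) for all peaks. The set of all peaks includes promoter and exon peaks, classes that no L1 peak of this list can have. More than 50 kb separated 933 peaks, 47.1% (44.9 to 49.4%), from any start. The share was 44.1% (42.7 to 45.4%) for other L1, with overlapping intervals, and 30.1% for all peaks. For L1HS to L1PA4 it was 52.8%. More than 500 kb separated 48 peaks, 2.43% (1.79 to 3.20%), close to the 2.33% of other L1 and the 2.08% of all peaks. By age, L1HS to L1PA4 had a median of 55732 bp (48817 to 61077), older L1P 49403.5 bp (44702 to 53083) and L1M with HAL1 36303 bp (34045 to 38205), of which the first and second overlapped the interval of L1PA5 to L1PA8. L1PA7 lay farthest of the larger subfamilies, with a median of 56140.5 bp (49200 to 64497). L1PA5 had 41974 bp (37602 to 47603) and L1PA6 43782 bp (37896 to 48996), and neither interval reaches that of L1PA7. L1PA8, at 40225 bp (31996 to 51251), did not differ from any of them beyond its interval.

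Separated by class, intronic peaks had a median of 39022.5 bp (35430 to 42697), against 32583 bp (30742 to 34792) for other intronic L1 peaks. Intergenic peaks had 56656 bp (49882 to 64169), against 53466.5 bp (49621 to 57104), with overlapping intervals. Over all peaks of the list the medians were 23503 bp (22568 to 24412) in introns and 40879 bp (39484 to 42283) in intergenic sequence. Against the other primate L1 the intronic distance did not stand apart, since L1HS to L1PA4 had 42868 bp (38218 to 47677) and older L1P 35887 bp (30471 to 40903), while L1M with HAL1 had 29923 bp (27802 to 31783). Of the 1013 intergenic peaks 62.7% (59.6 to 65.7%) lay upstream of the nearest start, close to the 60.8% (59.0 to 62.7%) of other L1.

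**Figure D3:**
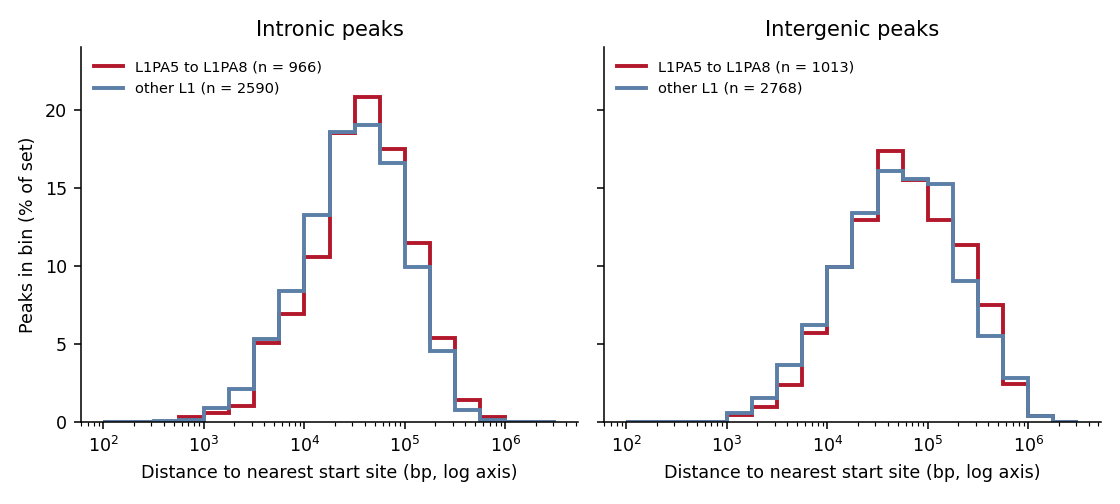
Distance from the peak centre to the nearest annotated start site (bp, log axis) for intronic (left) and intergenic (right) peaks, as the share of each set per bin (%), for L1PA5 to L1PA8 (red) and other L1 (blue). Medians were 39022.5 and 32583 bp in introns, and 56656 and 53466.5 bp in intergenic sequence, red before blue.

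Peaks close to a start were rare, in part by construction. Peaks deposited as promoter carry no repeat name, so they cannot enter any of the L1 sets. Within 1 kb there were 3 of 1979, 0.152% (0.0313 to 0.442%), against 6 of 5358 other L1 peaks, 0.112% (0.0411 to 0.244%), a difference that is not detectable with so few peaks. Within 5 kb there were 86, 4.35% (3.49 to 5.34%), against 5.88% (5.26 to 6.54%) of other L1, with intervals that just overlap. Of all peaks, which include those deposited as promoter, 16.8% lay within 1 kb and 26.3% within 5 kb. All 3 peaks within 1 kb were L1PA7 copies in a first intron. The strongest, with a score of 166, lay 896 bp past the start of CMTM1, a chemokine-like factor gene (chromosome 16, 66567022 to 66567649). The pseudogene LOC643201 had one of 137, 785 bp past its start (chromosome 5, 176198255 to 176198765). FAM81B, a protein-coding gene of little-known function, had one of 69 at 795 bp (chromosome 5, 95391988 to 95392335).

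None of the 1979 peaks overlapped any of 35116 RefSeq promoter windows on GRCh38.p14, each from 250 bases before to 50 after a gene's start. A peak deposited as promoter carries no repeat name in this list and so cannot be counted here. The lack of overlap thus follows largely from the annotation and is not a result about these elements. The upstream 250 bases of CMTM1 and FAM81B are shown because these are the coding starts that the peaks came closest to. Capitals mark CG dinucleotides on the gene strand, which is the plus strand for both.
CMTM1 (chr16:66566189-66566438): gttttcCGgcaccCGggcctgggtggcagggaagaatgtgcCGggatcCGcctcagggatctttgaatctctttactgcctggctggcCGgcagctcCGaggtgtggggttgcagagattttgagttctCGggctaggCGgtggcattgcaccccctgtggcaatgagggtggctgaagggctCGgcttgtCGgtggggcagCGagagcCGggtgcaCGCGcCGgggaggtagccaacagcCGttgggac
FAM81B (chr5:95391116-95391365): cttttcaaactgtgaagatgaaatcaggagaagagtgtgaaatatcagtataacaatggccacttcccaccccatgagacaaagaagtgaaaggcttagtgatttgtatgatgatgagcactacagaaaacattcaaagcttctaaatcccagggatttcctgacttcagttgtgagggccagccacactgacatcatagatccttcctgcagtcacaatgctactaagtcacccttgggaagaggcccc
The CMTM1 stretch held 16 CG dinucleotides, a number that 41.0% of all promoter windows reach or exceed, and the FAM81B stretch held 0, as 6.06% of windows do. The median over the same 250 bases of all windows was 11. The L1PA7 peaks began 583 bp past the end of the CMTM1 stretch and 622 bp past that of FAM81B. The sequence under the peaks themselves was not used here.

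The 10 highest-scoring peaks over these elements had scores of 309 to 255, and 6 of them were L1PA7. The first, an L1PA6 copy in intron 2 of FNBP4, scored 309 (chromosome 11, 47756510 to 47757195). FNBP4 encodes a formin-binding protein. An intergenic L1PA7 copy 290902 bp upstream of LINC00838 scored 297 (chromosome 10, 34063103 to 34064061). The only L1PA8 copy of the 10, 57786 bp upstream of the circadian clock gene ARNTL, scored 288 (chromosome 11, 13218632 to 13219101). LINC02285, LIPF, the gene for gastric lipase, and the pseudogene CHEK2P2 were nearest to L1PA7 peaks of 285, 284 and 276. The LIPF peak lay 1148 bp upstream of the start (chromosome 10, 88662833 to 88663755), the shortest distance among these 10.

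An L1PA6 copy 16271 bp upstream of SLC38A1, which encodes a glutamine transporter, scored 273 (chromosome 12, 46284905 to 46285723). Intron 7 of SLC25A24, the gene for a mitochondrial ATP-Mg/phosphate carrier, held an L1PA7 copy of 269 (chromosome 1, 108144263 to 108145212). Intron 1 of SVOP, a synaptic vesicle protein gene, held an L1PA5 copy of 255 (chromosome 12, 108989918 to 108990636). Thus 3 of the 10 lay in introns and 7 between genes.

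Nearest genes numbered 1627, and 9 peaks had no gene name in the table. Protein-coding genes were nearest to 67.5% (65.4 to 69.6%) of the peaks, against 68.1% (66.9 to 69.4%) of other L1 peaks, and non-coding RNA genes to 28.1% (26.1 to 30.1%), against 28.2% (27.0 to 29.4%). Of the 1627 genes 1363, or 83.8%, had 1 peak, 210 had 2 and 41 had 3. The long non-coding RNA gene NR2F1-AS1, which runs antisense beside the nuclear receptor gene NR2F1, stood first with 11 peaks and a further 9 over other L1. Its peaks spanned 4 subfamilies, and 6 of them were intergenic.

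The NR2F1-AS1 peaks lay 43707 to 879270 bp downstream of its start on chromosome 5. The intergenic ones scored 87 at the farthest site, an L1PA7 copy, and 23, 47, 128, 48 and 109 at 5 L1PA5 sites. The intronic ones scored 51 and 18 over L1PA6, 64 and 41 over L1PA7 and 44 over L1PA8. The highest score, 128, belonged to a peak (93167771 to 93168149) whose neighbour (93166907 to 93167183) was of the same subfamily and scored 47.

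MIR548G, a microRNA gene on chromosome 4, was nearest to 6 intergenic peaks at 37167 to 156101 bp, of which 4 were L1PA7 and 2 L1PA8A, with scores of 30 to 69. LINC02211 and LINC00603 on chromosome 5 and NAV3, a neuron navigator gene, had 5 each, with top scores of 78, 61 and 53. The next genes, with 4 each, were EXOC5, a subunit of the exocyst that tethers secretory vesicles, with a top score of 157, TMTC2 with 137, and PDE4D, a cyclic AMP phosphodiesterase, with 135. LINC02328 had a top score of 90, and HECTD2, a HECT-type ubiquitin ligase gene, 82. The HECTD2 and PDE4D peaks, counted by nearest start, were all intronic, though not all in introns matched to these genes. PDE4D was the host gene of 3 peaks, and HECTD2 was not among the hosts with 4 or more. The 4 nearest to TMTC2 lay 521803 to 585214 bp from its start.

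By host gene, a count added after the values were seen, PRKG1, which encodes a cyclic GMP-dependent kinase, DOCK3, a guanine nucleotide exchange factor gene, LRBA, a vesicle trafficking gene, and NR2F1-AS1 had 5 intronic peaks each. Their spans were 1307, 709, 751 and 176 kb in that order. Of the 794 hosts 663 had 1 peak. Genes named MIR548, a microRNA family known to derive from a DNA transposon and not from L1, were nearest to 14 peaks, and no peak overlapped a microRNA entry. The mature products of MIR548G are given because it ranked second by peaks. Capitals mark the seed, bases 2 to 8, and the sequences are those of RefSeq on GRCh38.p14.
hsa-miR-548g-5p: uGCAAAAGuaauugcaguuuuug
hsa-miR-548g-3p: aAAACUGUaauuacuuuuguac
These arms have different seeds and come from the minus strand of chromosome 4, at 147344681 to 147344703 and 147344643 to 147344664.

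Most of these peaks had no close neighbour of their own subfamily, and 142 of the 1979, 7.18% (6.08 to 8.40%), had one within 6 kb (centre to centre). Another L1 peak stood within 1500 bp of 125 of the 1979 peaks, 6.32% (5.28 to 7.48%), against 3.28% (2.82 to 3.80%) of other L1 peaks. For a neighbour of the very same subfamily the share was 5.26% (4.31 to 6.33%) in L1PA5 to L1PA8 and 2.54% (2.13 to 2.995%) in other L1. L1HS to L1PA4 came close, with 5.12% (3.80 to 6.73%) and 4.06% (2.89 to 5.52%), so the short gaps were not told apart from those of the younger L1. Over any peak of the list within 6 kb, L1PA5 to L1PA8 had 14.6% (13.1 to 16.2%) and other L1 15.3% (14.4 to 16.3%), which does not differ beyond the intervals.

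Of 81 consecutive pairs of L1PA5 to L1PA8 peaks within 6 kb, about the length of a full L1, 72 were of 1 subfamily, 88.9% (80.0 to 94.8%), against 131 of 219 pairs, 59.8% (53.0 to 66.4%), over other L1. Other L1 holds many more names, and the part of this in its lower share was not tested. The 72 pairs had a median gap of 1051.5 bp. Gaps of 500 to 1000 bp made up 27 and gaps of 1000 to 1500 bp 25, while from 1500 to 2000 bp there were 2. In other L1 the median gap was 1419 bp, and 43 and 25 of 131 pairs fell in these bins. No gap was under 500 bp in either set. All peaks were at least 248 bp wide, which limits how close the centres of separate peaks can lie. The part of this in the empty bin was not tested. The peaks formed 68 runs of 2 and 2 runs of 3. Peaks in runs had a median score of 56.5 (51 to 61), and the 1837 lone peaks 53 (52 to 53).

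**Figure D4:**
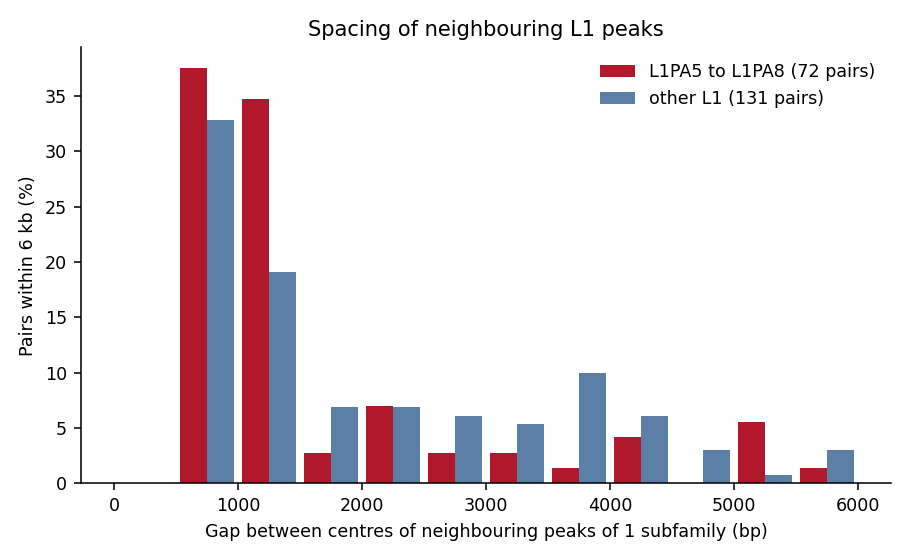
Gaps between the centres of neighbouring peaks of the same subfamily (bp, bins of 500 bp) as the share of pairs within 6 kb (%), for L1PA5 to L1PA8 (red, 72 pairs) and other L1 (blue, 131 pairs). Red bars stand highest from 500 to 1500 bp, with 27 and 25 pairs.

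The runs of 3 lay beside PATL2, an RNA-binding protein gene, and LINC00603. At PATL2 the L1PA7 peaks scored 14, 44 and 147 along chromosome 15 (44683321 to 44683633, 44688307 to 44688677 and 44689265 to 44689693). At LINC00603 the L1PA5 peaks scored 19, 30 and 48 along chromosome 5 (39907327 to 39907748, 39909771 to 39910021 and 39910743 to 39910992). Whether the peaks of a run lie in 1 element cannot be read from the names alone.

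All 23 chromosomes in the list carried such peaks, from 10 on chromosome 19 to 202 on chromosome 1. On chromosome 19, which has many genes and KRAB zinc finger clusters, they were 10 of 174 L1 peaks, 5.75% (2.79 to 10.3%), against a median of 25% over the chromosomes. Chromosome 20 followed with 13.5% (8.31 to 20.2%) and chromosome 22 with 16.9% (9.31 to 27.1%). Chromosomes 6 and 5 had the highest shares, 32.5% (28.1 to 37.1%) and 32.4% (28.4 to 36.6%). As a share of all peaks of the chromosome the range was 0.543% (0.261 to 0.997%) on chromosome 19 to 13.9% (11.5 to 16.6%) on chromosome 14. The X chromosome, where L1 elements are known to be dense, had 13 such peaks among 143 peaks in all, 9.09% (4.93 to 15.04%). How dense each subfamily is on each chromosome was not used here.

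**Figure D5:**
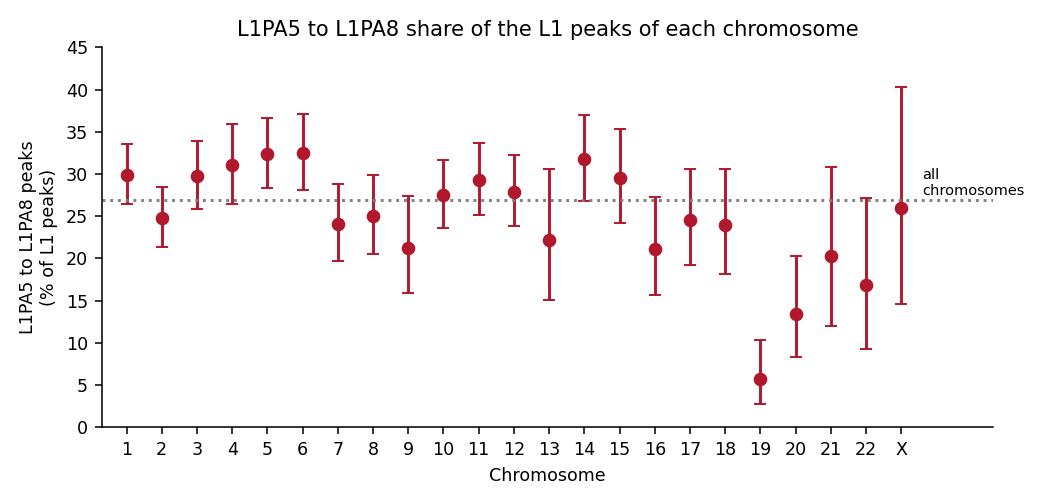
L1PA5 to L1PA8 peaks as a share of the L1 peaks of each chromosome (%, points, with exact Clopper-Pearson 95% intervals); the dotted line is the share over all chromosomes, 27.0%. Chromosome 19 lies lowest at 5.75%, and chromosome 6 highest at 32.5%.

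Genes of the mTOR pathway were the nearest or host gene of 5 of the 1979 peaks, 0.253% (0.0821 to 0.589%), and of 14 of 5358 other L1 peaks, 0.261% (0.143 to 0.438%). All 5 were intronic. MTOR itself and SESN3, a stress-induced inhibitor of mTORC1, each held one of 87, in intron 29 over L1PA5 and in intron 1 over L1PA7 (chromosome 1, 11166732 to 11167046, and chromosome 11, 95209393 to 95209818). DEPTOR, an mTOR-binding inhibitor, had one of 51, and RRAGC, a Rag GTPase gene that brings mTORC1 to the lysosome, one of 48, both L1PA7. Of 58 pathway genes, 57 of them current symbols, 5 had such a peak.

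Other lists were likewise sparse. Long genes of common fragile sites and similar neuronal genes had 18 peaks in 12 of 41 genes, 0.910% (0.540 to 1.43%) of the peaks, against 39 peaks, 0.728% (0.518 to 0.994%), over other L1. CDH18, a cadherin gene, had the top score of 119 at an L1PA8A copy 639829 bp from its start, and DPYD, which encodes the enzyme that breaks down pyrimidines, held 117 and 83. PCDH15 held 93 in intron 2, CNTN5 66 and KCNIP4 64. Glutamate and GABA receptor genes had 3 peaks, 0.152% (0.0313 to 0.442%), against 11 over other L1, 0.205% (0.103 to 0.367%). Among the 3 were GRIA4 at 147 and GRM5 at 53. Among 23 genes of RONIN, HCF-1 and PML only PIAS1, a SUMO ligase gene, had a peak, of 17 over L1PA6. That was 0.0505% (0.00128 to 0.281%) of the peaks, against 6 over other L1, 0.112% (0.0411 to 0.244%). The 33 genes that silence L1, TRIM28, SETDB1, MORC2 and TASOR among them, had 0 of 1979 (exact upper bound 0.186%, or 0.152% at 3 counts), and 5 of 5358 over other L1, 0.0933% (0.0303 to 0.218%). None of these list shares differed between the sets beyond the intervals. The lists were not counted over all peaks.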

How the data were processed

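An mTOR antibody was used to enrich cross-linked chromatin of MDA-MB-231 cells, and an input library served as reference, per the labels' protocols. Per the submitters' processing notes the build was hg38 and the tools were HOMER 4.11.1, MACS2 2.1.1.20160309, Picard 2.0.1, BWA 0.7.12 and Trimmomatic 0.36, with no settings. Not given in the sources used here are the peak threshold and the handling of duplicate reads and of reads with several alignments. The authors deposited 1 table with a score per peak, its position, class, repeat name and distance in bp to the nearest start site. Input data were not analysed here.

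Members were taken by repeat name; the members and gene lists were chosen with earlier results of these data known. Host genes are those whose transcript the intron annotation names and whose span on GRCh38.p14 holds the peak centre. Genes named are the nearest genes of the 10 top-scoring, 3 widest and start-proximal peaks, the 10 with most peaks, up to 5 per list and MTOR, some of which are not reported here; host genes, runs of 3 and score bands were added after the values were seen. No test was made, as 1 library has no replicate. Share and median functions were tested on simulated peaks. Alternatives were a score of at least 61, 1 peak per run within 6 kb, chromosome 19 or L1PA8A left out, another comparison set, a higher score level, 5 kb and intergenic peaks only. Analyses used Python 3.11.15, matplotlib 3.10.9, scipy 1.17.1, numpy 2.4.6 and pandas 2.3.3.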

Additional observations from a re-analysis of the deposited data

How the results depend on the processing

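The 8 results were recomputed under 42 alternative settings in all. A reversal against other L1 could be asked only of the median score, the upper-tail share of scores, the median width and the median distance. None of these differences changed direction. For the intronic, intergenic and 1 kb shares the main interval held the value of other L1, so there was no clear difference to reverse. The share of L1 peaks has only its own complement to compare with. The value of L1PA5 to L1PA8 stayed within its main 95% interval in 34 of the 42 settings. Leaving L1HS to L1PA4 out of the comparison set cannot move any of these values except the share of L1 peaks. The intronic and intergenic shares are complements and not separate results, so the 34 are not independent checks. With a score of at least 61, L1PA5 to L1PA8 were 22.1% of L1 peaks, their median score was 79 (other L1 97), their median width 385 bp (473 bp) and their median distance 41337 bp (37455 to 45485), against 39744 bp for other L1, so the longer distance no longer stood clear. Without L1HS to L1PA4 they were 30.9% of the remaining L1 peaks. At the level of the top 5% of all peaks, a score of 304, 0.0505% of them remained, 1 peak, against 4.24% of other L1. A window of 5 kb gave 4.35% near a start, where the difference from other L1 was negative, and intergenic peaks alone a median distance of 56656 bp. Each of these settings changes the set or window by construction. No paired analysis was possible because there is 1 ChIP library and no test. Depth is unknown, so the number of weak peaks cannot be judged, and replicates that would give an error beyond counting were not analysed here.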
